A study of Mus musculus with 44 samples.

Results

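Lysosomal hydrolases, lysosomal membrane proteins, the proton pump and the transcription factors of the lysosomal program were followed across cultured primary mouse microglia and astrocytes. The set holds 34 genes of the 54146 in the count table, chosen by symbol as lysosomal enzymes other than cathepsins, membrane proteins, lipid exporters, proton pump subunits and TFEB factors. The rule names symbols only, but the members were chosen with earlier results of these data known. All 34 were found in the table and all 34 passed the filter on low counts in each comparison. The cells came from mice of 4 Apoe genotypes: Apoe KO (no mouse Apoe), APOE44 and APOE33 (named for 2 copies of the human APOE4 or APOE3 allele) and Apoe WT (the mouse gene). They were untreated and grown in media designed for human glia. Each cell type had 4 KO (1 female, 3 male), 6 APOE44 (3 female, 3 male), 6 APOE33 (4 female, 2 male) and 6 WT libraries (3 female, 3 male), 44 in all. The labels give neither the age of the mice nor how the alleles were introduced, and do not state where each replicate came from (its own animal or culture, or not), so p-values measure only the spread between these libraries, which may be technical. All WT libraries are tagged batch 2 and all others batch 1; against WT, genotype and batch cannot be told apart.

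Lysosomes are acidic compartments that digest lipids, glycans, proteins and nucleic acids delivered by endocytosis and autophagy. A vacuolar proton pump (the V-ATPase) acidifies the lumen, soluble hydrolases work there at low pH, and heavily glycosylated membrane proteins line the boundary and carry ions and products. Cholesterol set free from lipoproteins leaves through Npc2 and Npc1, and glycosphingolipids are taken apart stepwise by exoglycosidases helped by the saposins, which are cut from prosaposin (Psap). In microglia this system handles engulfed debris and lipoproteins, and apolipoprotein E is a main lipid carrier that brain cells exchange. Tfeb and Tfe3, relatives of Mitf, bind E-box elements of the CLEAR type in promoters of many lysosomal genes; mTORC1 keeps them in the cytoplasm when nutrients are plentiful, so their activity is set largely by location and phosphorylation, which RNA does not show.

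The promoter sequences of the members bear on this program. RefSeq windows of 300 bases (250 before to 50 from the start of the gene, GRCm38.p6) were given for 31 of the 34 members, all but Asah1, Atp6v0d2 and Npc1. The E-box CACGTG, its own reverse complement, stood in the windows of 9 of the 31 genes (29.0%), beside 8.09% of 27025 genes with a window. The longer TCACGTG, searched on both strands and overlapping the E-box, stood in the same 9 windows, beside 4.29% of all genes. A still longer palindrome of 10 bases, built around the E-box, was searched too. It stood in the windows of 0 of the 31 genes, beside 0.37% of all genes. A motif this rare is too seldom found for its absence from 31 genes to be informative. The 9 genes are Lamp1, Mcoln1, Atp6v0d1, Glb1, Naglu, Gaa, Arsa, Atp6v1a and Gla. A match is a description of letters and not of binding. In the next lines, the windows of 4 of them whose transcripts were higher in KO than in APOE33 microglia (chosen after those values were known) are printed 5′ to 3′ in lower case, with the TCACGTG or CACGTGA letters in capitals.
Lamp1 (chr8:13158911-13159210, plus strand): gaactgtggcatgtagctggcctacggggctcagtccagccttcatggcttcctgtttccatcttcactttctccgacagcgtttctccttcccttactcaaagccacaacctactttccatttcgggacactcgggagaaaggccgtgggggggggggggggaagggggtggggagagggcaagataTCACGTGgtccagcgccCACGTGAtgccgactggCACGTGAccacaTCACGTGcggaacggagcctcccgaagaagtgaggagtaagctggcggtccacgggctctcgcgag
Mcoln1 (chr8:3500269-3500568, plus strand): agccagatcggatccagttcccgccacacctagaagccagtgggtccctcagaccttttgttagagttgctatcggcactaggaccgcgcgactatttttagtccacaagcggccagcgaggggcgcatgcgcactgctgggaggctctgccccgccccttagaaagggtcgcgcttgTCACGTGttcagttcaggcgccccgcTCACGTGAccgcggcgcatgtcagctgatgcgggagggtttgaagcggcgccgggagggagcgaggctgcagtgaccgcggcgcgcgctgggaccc
Naglu (chr11:101069844-101070143, plus strand): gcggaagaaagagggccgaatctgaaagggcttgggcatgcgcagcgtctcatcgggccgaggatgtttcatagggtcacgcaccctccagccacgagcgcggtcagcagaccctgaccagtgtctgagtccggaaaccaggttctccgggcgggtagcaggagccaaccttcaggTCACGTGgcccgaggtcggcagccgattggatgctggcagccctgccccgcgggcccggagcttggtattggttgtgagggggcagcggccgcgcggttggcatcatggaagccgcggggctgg
Glb1 (chr9:114400828-114401127, plus strand): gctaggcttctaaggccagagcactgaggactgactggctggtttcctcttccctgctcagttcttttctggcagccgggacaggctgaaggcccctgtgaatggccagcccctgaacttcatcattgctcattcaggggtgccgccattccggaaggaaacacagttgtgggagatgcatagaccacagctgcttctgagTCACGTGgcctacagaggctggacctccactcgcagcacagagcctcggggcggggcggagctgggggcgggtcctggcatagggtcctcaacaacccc
The Lamp1 window carries 4 E-boxes, whose first bases lie 61, 45, 28 and 15 bases before the start. Mcoln1 carries 2, at 71 and 45 bases before the start, Naglu has 1 at 73 and Glb1 has 1 at 48 bases before it.

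Levels are given as CPM, counts scaled to a common library total, or, where genes are compared with each other, as TPM, which also divides by exon length. Per length, Psap was the highest member in all 8 groups, at 8468 ± 573 TPM in KO microglia and 6246 ± 816 TPM in APOE33 microglia (SD, n = 4 and 6), and 5480 ± 156 and 5800 ± 301 TPM in the KO and APOE33 astrocytes. In KO microglia the next were Cd68 (3380 ± 310 TPM), a scavenger receptor-like protein of macrophage lysosomes, Grn (2786 ± 88.2 TPM), the precursor of granulins, and Hexa (2188 ± 123 TPM), the alpha subunit of beta-hexosaminidase. In KO astrocytes Psap was followed by Lamp1 (1454 ± 39.4 TPM), a major glycoprotein of the boundary membrane, and Cd63 (526 ± 25.4 TPM), a tetraspanin of late endosomes. The factors were low: Tfeb stood at 23.3 ± 0.225 TPM in KO microglia and 21.7 ± 0.571 TPM in KO astrocytes. The lowest value of any member was that of Atp6v0d2 in astrocytes, at 0.475 ± 0.162 TPM in KO.

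**Figure D1:**
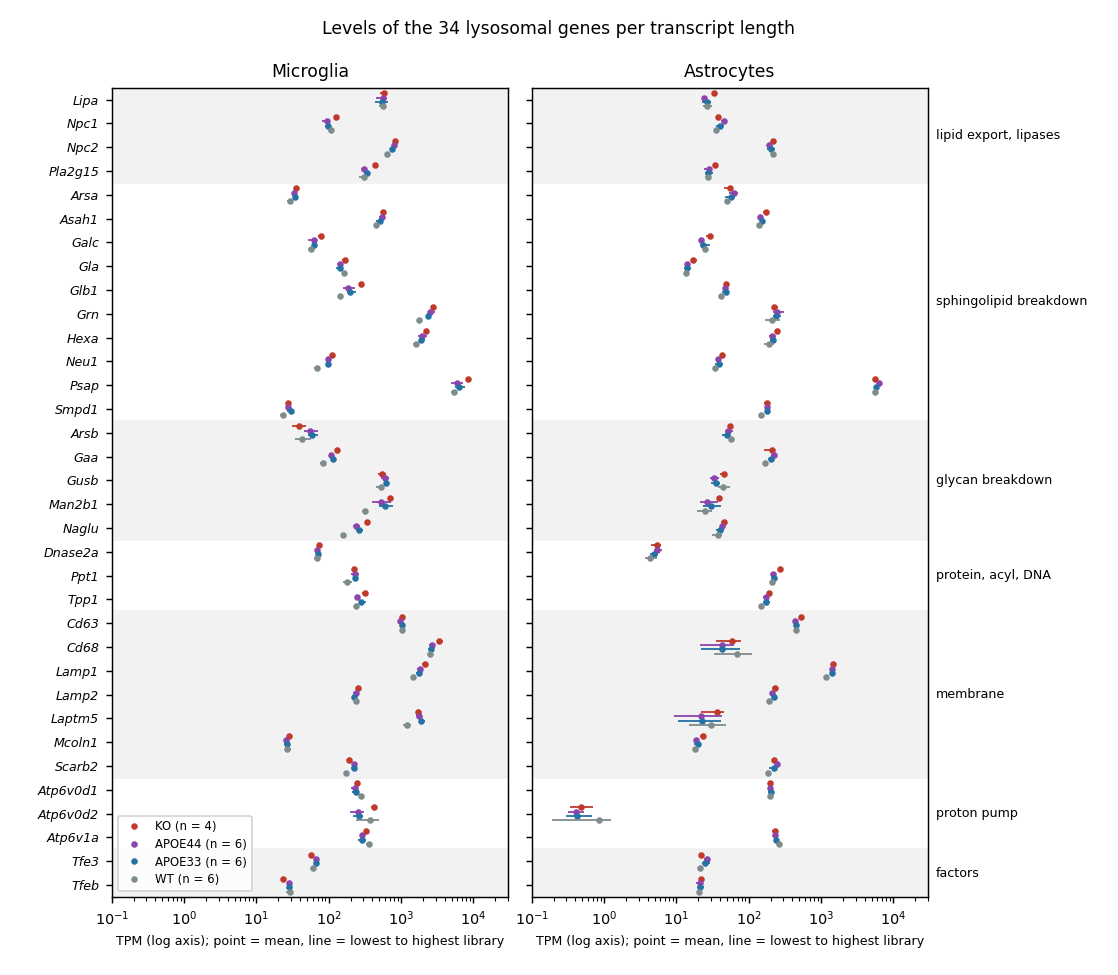
Level of each of the 34 lysosomal genes in TPM (log axis), microglia at left and astrocytes at right, by genotype; points are group means and lines span the lowest to the highest library (n = 4 for KO, 6 for the others). Psap lies highest in both panels, most genes lie further right in microglia, Smpd1 lies further left there, and Atp6v0d2 lies under 1 TPM in astrocytes.

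Libraries held 83239599 to 143150569 counts, with RIN 8.9 to 10. Mouse Apoe, read as a check of the labels, had a median of 10.7 CPM in KO, 46.4 CPM in APOE44, 43.6 CPM in APOE33 and 42509 CPM in WT microglia, and of 13.5 CPM in KO, 29.5 CPM in APOE44, 26.6 CPM in APOE33 and 7370 CPM in WT astrocytes. The markers fitted the labelled cell types: 16 microglial markers summed to 23834 to 25132 CPM in KO and 26747 to 30543 CPM in APOE33 microglia, and to 307 to 608 CPM in KO and 212 to 715 CPM in APOE33 astrocytes. Over 15 of these markers, the astrocyte libraries carried the equivalent of 0.82% to 1.88% (median 1.48%) microglial RNA in KO and 0.415% to 1.71% (median 0.758%) in APOE33. The 10 markers of astrocytes summed to 73.5 to 104 CPM in KO and 26.8 to 77.6 CPM in APOE33 microglia. In bulk RNA, fewer cells of a type and less RNA per cell cannot be told apart.

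The first comparison asks how the lysosomal genes differ between the cell types. Of the 34 members, 31 were higher and 2 lower in microglia than in astrocytes of batch 1, over the KO, APOE44 and APOE33 genotypes (16 libraries each). Over all 21647 genes tested, 90.9% were called at an edgeR adjusted p under 0.05, 40.3% as higher and 50.6% as lower. The median log2 difference of the members was 2.14, beside -0.25 over all genes. In the 12 WT libraries of batch 2, the same counts of 31 and 2 came out, with a median of 2.13 beside -0.13, where 89.5% of 19331 genes were called, 41.6% as higher and 47.9% as lower. The TMM scaling of the test puts these differences 0.51 (batch 1) and 0.49 (WT) above plain log2 ratios of CPM, in which the members' medians were 1.63 and 1.64. Lipid exporters and lipases were higher throughout, 4 of 4, and so were the 7 membrane proteins, the 3 proton pump genes and both factors.

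The largest difference was that of Atp6v0d2, the d2 isoform of a V0 subunit of the pump, known from osteoclasts and macrophages. Atp6v0d2 stood at 192 to 256 CPM (median 236) in APOE33 microglia and at 0.221 to 0.497 CPM (median 0.262) in APOE33 astrocytes, a log2 difference over the genotypes of 10.20 ± 0.11 (SE, adjusted p = 1.53e-32). Its sister isoform Atp6v0d1, expressed in most tissues, differed by 1.03 ± 0.04 (SE, adjusted p = 6.31e-20). Laptm5, a membrane protein of hematopoietic lysosomes, followed. Laptm5 stood at 2195 to 2601 CPM (median 2301) in APOE33 microglia and at 11.3 to 43.1 CPM (median 21.2) in APOE33 astrocytes, with a difference of 6.89 ± 0.24 (SE, adjusted p = 1.67e-20). Cd68 stood at 958 to 1153 CPM (median 1061) in APOE33 microglia and at 7.62 to 25.5 CPM (median 13.8) in APOE33 astrocytes, with a difference of 6.69 ± 0.20 (SE, adjusted p = 7.41e-22). The fourth was Lipa, the acid lipase that frees cholesterol from its esters. Lipa stood at 942 to 1451 CPM (median 1208) in APOE33 microglia and at 42.2 to 54.5 CPM (median 48.8) in APOE33 astrocytes, with a difference of 5.14 ± 0.077 (SE, adjusted p = 5.09e-30). The ranges of the cell types lay apart for each of these genes. The microglial RNA equivalent to the markers would give 30.5 of the mean 36.6 CPM of Laptm5 in KO astrocytes and 19.8 of the 20 CPM of Cd68, beside 18.4 of the 59.7 CPM of Lipa. For Atp6v0d2 it would give 5.25 CPM in KO astrocytes, where the mean was 0.347 CPM, and 1.96 CPM in APOE33, where it was 0.314 CPM. The estimate thus does not hold for every member.

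At the other end, Smpd1, the acid sphingomyelinase, was the member with a clear excess in astrocytes. Smpd1 stood at 29 to 34.1 CPM (median 32.2) in APOE33 microglia and at 154 to 180 CPM (median 165) in APOE33 astrocytes, and the difference was -1.91 ± 0.04 (SE, adjusted p = 1.46e-26), with -1.87 ± 0.029 (SE, adjusted p = 3.48e-16) in WT cells. The smallest differences were those of Arsa, Gaa, Scarb2 and Arsb. Arsa stood at 38.2 to 44.8 CPM (median 41.1) in APOE33 microglia and at 46.9 to 64.9 CPM (median 58.8) in APOE33 astrocytes, and this sulfatase, which removes the sulfate of sulfatide, did not pass the test (0.015 ± 0.043 SE, adjusted p = 0.743); in plain CPM its mean lay lower in microglia than in astrocytes, as did that of Arsb in WT cells. Gaa, the acid alpha-glucosidase that digests glycogen, was lower by a small step (-0.089 ± 0.04 SE, adjusted p = 0.0379), a call lost in 14 of 32 fits with a library left out. Gaa stood at 163 to 182 CPM (median 176) in APOE33 microglia and at 241 to 278 CPM (median 269) in APOE33 astrocytes, and these ranges lay apart in APOE33. Scarb2 stood at 420 to 476 CPM (median 453) in APOE33 microglia and at 340 to 423 CPM (median 380) in APOE33 astrocytes, with overlap; this receptor, which brings glucocerebrosidase to the lysosome, differed by 0.67 ± 0.029 (SE, adjusted p = 7.35e-19). Arsb stood at 103 to 137 CPM (median 114) in APOE33 microglia and at 72 to 90.9 CPM (median 84.7) in APOE33 astrocytes; for this sulfatase of dermatan and chondroitin sulfate the difference was 0.72 ± 0.072 (SE, adjusted p = 3.69e-10). Of the exon bases of Arsa and Arsb, 18.8% and 39.9% are shared with genes of the opposite strand, and no source used here states whether counting used strand, so their reads cannot be told from those of the partners. Hexa likewise shares 12.8% of its exon bases with a gene of the opposite strand.

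In microglia, more members were higher than lower without Apoe. Against APOE33, 21 of the 34 members rose in KO microglia, 4 fell and 9 did not pass, beside 22.7% of 17143 genes called, 10.9% as higher and 11.9% as lower. Their median log2 fold change was 0.25, beside -0.02 over all genes, and DESeq2 also called 21 higher and 4 lower. The TMM scaling puts these changes a median of 0.067 above plain log2 ratios of CPM, in which the members' median was 0.18. Of the 4 lower calls, Scarb2, Arsb, Tfe3 and Tfeb, only Tfeb passed with no filter on low counts, where the counts were 21 higher and 1 lower. Without KO replicate 1, 15 members rose and 2 fell. Together the members took 3.11% ± 0.14 of the counts in KO, 2.59% ± 0.18 in APOE44 and 2.64% ± 0.13 in APOE33 microglia (SD, n = 4, 6 and 6). Psap alone made up 0.70% to 0.82% of the counts in KO and 0.50% to 0.68% in APOE33; the other 33 members made up 2.25% to 2.46% in KO and 2.03% to 2.19% in APOE33. For 14 members every KO value lay above every APOE33 value (background 6.27% of genes), and for 4 every KO value lay below (background 12.5%).

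The summed microglial markers were lower in KO microglia, by the ranges above (5 fell, 11 did not pass), and 4 of 5 tested markers of border macrophages and monocytes rose, their sum being 1365 to 1558 CPM in KO and 894 to 1316 CPM in APOE33. Of the oligodendrocyte lineage, 4 of 8 markers fell, with sums of 141 to 172 CPM in KO and 172 to 271 CPM in APOE33, and 1 of the 8 markers was at 0 in KO. Of 10 astrocyte markers 2 rose, by the sums above. The part of these markers in the result was not tested. Replicate 1 of KO, the only female KO library, was the highest KO library for 16 of the 21 members that rose, and replicate 2 the lowest for 13. In APOE33, replicate 3 was the highest library for 19 of 34 members.

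**Figure D2:**
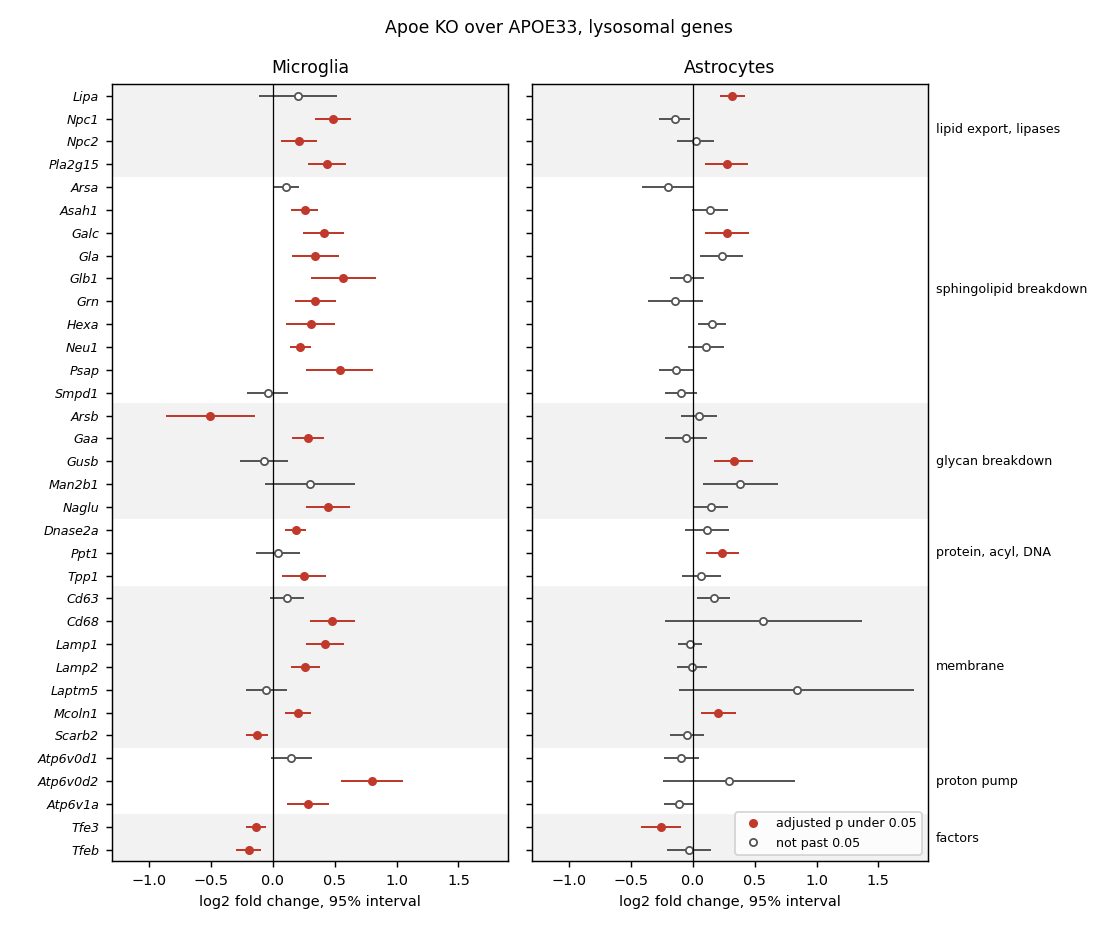
Log2 fold change of KO over APOE33 with its 95% interval for each of the 34 genes, ordered by role, in microglia (left) and astrocytes (right); filled red points passed an adjusted p of 0.05. In microglia 21 points passed on the right of 0 and 4 on the left; in astrocytes 6 passed on the right and 1 on the left.

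The counts by role that follow stand beside 10.9% of all genes called higher and 11.9% called lower. Among lipid exporters and lipases, 3 of 4 rose. Npc1, the membrane protein that moves cholesterol out of the lysosome, had 482, 452, 466 and 475 CPM in KO microglia, against 303 to 368 CPM (median 347) in APOE44 and 335 to 372 CPM (median 358) in APOE33 microglia. All 4 KO libraries lay above all 12 APOE44 and APOE33 libraries. Its log2 fold change was 0.49 ± 0.069 (SE, adjusted p = 0.000146) against APOE33 and 0.53 ± 0.067 (SE, adjusted p = 4.62e-05) against APOE44, comparisons that share the KO libraries. Pla2g15, a phospholipase that degrades the lysosomal lipid BMP and other phospholipids, had 444, 429, 418 and 416 CPM in KO microglia, against 280 to 315 CPM (median 298) in APOE44 and 297 to 359 CPM (median 341) in APOE33 microglia, again with no overlap. The change was 0.44 ± 0.073 (SE, adjusted p = 0.000483) against APOE33 and 0.59 ± 0.071 (SE, adjusted p = 2.95e-05) against APOE44. Npc2, the soluble partner that hands cholesterol to Npc1, had 1557, 1399, 1434 and 1409 CPM in KO microglia, against 1307 to 1503 CPM (median 1380) in APOE44 and 1269 to 1432 CPM (median 1299) in APOE33 microglia. The groups overlapped, and the call against APOE33 (0.21 ± 0.069 SE, adjusted p = 0.0378) was lost when KO replicate 1 (adjusted p = 0.281), KO replicate 3 or any of 4 APOE33 libraries was left out; against APOE44 it did not pass (0.14 ± 0.067 SE, adjusted p = 0.129). Lipa did not pass (0.20 ± 0.15 SE, adjusted p = 0.361); it had 1430, 1142, 1299 and 1334 CPM in KO microglia, against 985 to 1392 CPM (median 1268) in APOE44 and 942 to 1451 CPM (median 1208) in APOE33 microglia.

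In the sphingolipid group, in which Grn was also counted although it is not a sphingolipid enzyme, 8 of 10 members rose and none fell. Their median log2 fold change was 0.33. Psap, the precursor of the saposins that lift sphingolipids out of the membrane for their enzymes, had 8233, 7001, 7476 and 7856 CPM in KO microglia, against 4354 to 6199 CPM (median 5093) in APOE44 and 4973 to 6769 CPM (median 5207) in APOE33 microglia. The KO libraries lay above all APOE44 and APOE33 libraries. The change was 0.54 ± 0.13 (SE, adjusted p = 0.00597) against APOE33 and 0.62 ± 0.12 (SE, adjusted p = 0.00172) against APOE44, and 0.46 to 0.68 against APOE33 with any 1 library left out. Grn, whose granulins act in the lysosome and whose loss causes neuronal ceroid lipofuscinosis, had 3332, 3162, 3084 and 3155 CPM in KO microglia, against 2605 to 3285 CPM (median 2708) in APOE44 and 2481 to 2852 CPM (median 2641) in APOE33 microglia. KO lay above APOE33 throughout, while the highest APOE44 library reached into the KO range. The change was 0.34 ± 0.077 (SE, adjusted p = 0.00406) against APOE33. Glb1, the beta-galactosidase that starts GM1 breakdown, had 280, 265, 280 and 263 CPM in KO microglia, against 157 to 221 CPM (median 170) in APOE44 and 173 to 231 CPM (median 177) in APOE33 microglia, without overlap, and a change of 0.57 ± 0.12 (SE, adjusted p = 0.00402). Galc, which splits galactosylceramide of myelin, had 391, 350, 379 and 388 CPM in KO microglia, against 254 to 328 CPM (median 310) in APOE44 and 286 to 330 CPM (median 303) in APOE33 microglia, also without overlap, and a change of 0.41 ± 0.078 (SE, adjusted p = 0.00137).

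Among the other sphingolipid enzymes, Asah1, the acid ceramidase, had 607, 621, 674 and 627 CPM in KO microglia, against 556 to 604 CPM (median 593) in APOE44 and 492 to 587 CPM (median 576) in APOE33 microglia; no KO value overlapped, and the change was 0.26 ± 0.052 (SE, adjusted p = 0.00223). Neu1, the sialidase that trims gangliosides and glycoproteins, had 132, 137, 138 and 131 CPM in KO microglia, against 111 to 127 CPM (median 117) in APOE44 and 116 to 122 CPM (median 120) in APOE33 microglia, again without overlap (0.22 ± 0.039 SE, adjusted p = 0.000733). Gla, the alpha-galactosidase of globotriaosylceramide, had 200, 161, 179 and 176 CPM in KO microglia, against 134 to 167 CPM (median 151) in APOE44 and 131 to 165 CPM (median 155) in APOE33 microglia. KO replicate 2 lay within the APOE ranges, and the call (0.34 ± 0.091 SE, adjusted p = 0.0119) was lost without KO replicate 1 (adjusted p = 0.136). Hexa had 1556, 1358, 1414 and 1417 CPM in KO microglia, against 1128 to 1442 CPM (median 1206) in APOE44 and 1131 to 1367 CPM (median 1203) in APOE33 microglia; the groups overlapped, and the call (0.31 ± 0.094 SE, adjusted p = 0.0264) was lost without KO replicate 1 (adjusted p = 0.171) or APOE33 replicate 6. Arsa had 41.9, 45.8, 41.7 and 42.9 CPM in KO microglia, against 37.4 to 41.4 CPM (median 39.1) in APOE44 and 38.2 to 44.8 CPM (median 41.1) in APOE33 microglia, and passed against APOE44 (0.19 ± 0.048 SE, adjusted p = 0.00669), a call lost without KO replicate 1 (adjusted p = 0.0539), but not against APOE33 (0.11 ± 0.049 SE, adjusted p = 0.133). Smpd1, low in microglia, did not pass against either (-0.042 ± 0.077 SE, adjusted p = 0.749 against APOE33).

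Of the 5 glycan enzymes, 2 rose and 1 fell. Naglu, which removes N-acetylglucosamine in heparan sulfate breakdown, had 317, 279, 279 and 289 CPM in KO microglia, against 187 to 232 CPM (median 194) in APOE44 and 203 to 254 CPM (median 222) in APOE33 microglia. All KO values lay above all APOE44 and APOE33 values. The change was 0.45 ± 0.084 (SE, adjusted p = 0.00124) against APOE33 and 0.61 ± 0.082 (SE, adjusted p = 7.34e-05) against APOE44. Gaa had 207, 197, 197 and 205 CPM in KO microglia, against 155 to 184 CPM (median 163) in APOE44 and 163 to 182 CPM (median 176) in APOE33 microglia, likewise without overlap, and rose by 0.28 ± 0.061 (SE, adjusted p = 0.00345). Arsb went the other way, with 97.3, 61, 67.6 and 82.2 CPM in KO microglia, against 90.2 to 137 CPM (median 97) in APOE44 and 103 to 137 CPM (median 114) in APOE33 microglia. Every KO value lay below every APOE33 value, but the call (-0.50 ± 0.17 SE, adjusted p = 0.0455) was lost in 9 of 16 fits with a library left out, and Arsb did not pass against APOE44 (-0.38 ± 0.17 SE, adjusted p = 0.108). Its shared exon bases are given above. Man2b1, the alpha-mannosidase of N-glycans, had 1860, 1884, 1854 and 1815 CPM in KO microglia, against 1057 to 1839 CPM (median 1365) in APOE44 and 1294 to 1999 CPM (median 1416) in APOE33 microglia. The KO libraries lay close together and the APOE libraries far apart, and Man2b1 passed against APOE44 (0.49 ± 0.17 SE, adjusted p = 0.0399) but not APOE33 (0.30 ± 0.17 SE, adjusted p = 0.234). The call against APOE44 was lost in 7 of 16 fits with a library left out, among them those without any 1 of the 4 KO libraries (highest adjusted p = 0.132, without KO replicate 1), and with no filter on low counts (adjusted p = 0.0931). Gusb, the beta-glucuronidase, did not pass (-0.068 ± 0.091 SE, adjusted p = 0.654 against APOE33).

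Among the enzymes of protein, acyl chains and DNA, Dnase2a, which digests DNA of engulfed cells, had 132, 132, 134 and 124 CPM in KO microglia, against 113 to 127 CPM (median 121) in APOE44 and 116 to 129 CPM (median 122) in APOE33 microglia; the ranges overlapped, and the change was 0.18 ± 0.04 (SE, adjusted p = 0.00359). It shares 30.0% of its exon bases with a gene of the opposite strand. Tpp1, a tripeptidyl peptidase, had 564, 491, 534 and 533 CPM in KO microglia, against 387 to 451 CPM (median 399) in APOE44 and 446 to 542 CPM (median 451) in APOE33 microglia. APOE33 replicate 3, at 542 CPM, lay within the KO range, and the call (0.25 ± 0.084 SE, adjusted p = 0.0431) was lost in 11 of 16 fits with a library left out (adjusted p = 0.279 without KO replicate 1). Against APOE44 the change was 0.43 ± 0.082 (SE, adjusted p = 0.00105). Ppt1, the palmitoyl-protein thioesterase, did not pass (0.043 ± 0.083 SE, adjusted p = 0.761 against APOE33).

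Of the 7 membrane proteins, 4 rose and 1 fell. Lamp1 had 2015, 1728, 1900 and 1883 CPM in KO microglia, against 1477 to 1717 CPM (median 1548) in APOE44 and 1410 to 1623 CPM (median 1499) in APOE33 microglia. Its KO values lay above all APOE44 and APOE33 values and the change was 0.42 ± 0.072 (SE, adjusted p = 0.000649). Lamp2, its relative that also serves chaperone-mediated autophagy, had 788, 747, 826 and 804 CPM in KO microglia, against 684 to 759 CPM (median 739) in APOE44 and 668 to 726 CPM (median 696) in APOE33 microglia. KO lay above APOE33 throughout (0.26 ± 0.056 SE, adjusted p = 0.00289), while 1 KO value lay within the APOE44 range. Cd68 had 1585, 1276, 1373 and 1354 CPM in KO microglia, against 984 to 1160 CPM (median 1077) in APOE44 and 958 to 1153 CPM (median 1061) in APOE33 microglia, without overlap, and a change of 0.48 ± 0.085 (SE, adjusted p = 0.000793). Mcoln1, the calcium and cation channel TRPML1, had 73.1, 70.5, 68 and 68.9 CPM in KO microglia, against 60.1 to 66.6 CPM (median 61) in APOE44 and 59.7 to 70.2 CPM (median 64) in APOE33 microglia; KO and APOE33 overlapped, and the call (0.20 ± 0.048 SE, adjusted p = 0.00647) was lost without KO replicate 1 (adjusted p = 0.0956). Scarb2 had 384, 403, 403 and 396 CPM in KO microglia, against 437 to 468 CPM (median 466) in APOE44 and 420 to 476 CPM (median 453) in APOE33 microglia. Its KO values lay below all APOE44 and APOE33 values, but the call against APOE33 (-0.12 ± 0.042 SE, adjusted p = 0.0435) was lost in 12 of 16 fits with a library left out. Against APOE44 the change was -0.14 ± 0.041 (SE, adjusted p = 0.016), lost without KO replicate 2 (adjusted p = 0.0535) and with no filter on low counts (adjusted p = 0.0686). Cd63 had 1379, 1163, 1201 and 1315 CPM in KO microglia, against 1133 to 1243 CPM (median 1151) in APOE44 and 1194 to 1267 CPM (median 1234) in APOE33 microglia, with overlap, and passed against APOE44 (0.20 ± 0.063 SE, adjusted p = 0.028). That call was lost in 5 of 16 fits with a library left out, the log2 fold change being 0.105 without KO replicate 1 (adjusted p = 0.253). Laptm5 did not pass (-0.051 ± 0.077 SE, adjusted p = 0.69 against APOE33).

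Of the proton pump, Atp6v0d2 rose most among all 34 genes. It had 384, 346, 383 and 371 CPM in KO microglia, against 177 to 274 CPM (median 218) in APOE44 and 192 to 256 CPM (median 236) in APOE33 microglia. The 4 KO libraries lay above all APOE libraries, and the change was 0.80 ± 0.12 (SE, adjusted p = 0.000253) against APOE33 and 0.86 ± 0.12 (SE, adjusted p = 8.7e-05) against APOE44. The WT libraries of batch 2 ran from 209 to 454 CPM (median 329). Atp6v1a, the catalytic A subunit, had 683, 599, 658 and 662 CPM in KO microglia, against 521 to 613 CPM (median 579) in APOE44 and 491 to 631 CPM (median 570) in APOE33 microglia; the ranges overlapped in 1 KO library, and the call (0.29 ± 0.08 SE, adjusted p = 0.0167) was lost without KO replicate 1 (adjusted p = 0.135). Atp6v0d1 did not pass (0.15 ± 0.078 SE, adjusted p = 0.192 against APOE33).

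Both factors fell. Tfeb had 43.3, 43.7, 44.1 and 43 CPM in KO microglia, against 49.7 to 53.8 CPM (median 50.7) in APOE44 and 48.9 to 55.6 CPM (median 50.4) in APOE33 microglia. No KO value reached an APOE value, and the change was -0.19 ± 0.047 (SE, adjusted p = 0.00789) against APOE33 and -0.17 ± 0.046 (SE, adjusted p = 0.0116) against APOE44. Tfe3 had 167, 177, 175 and 171 CPM in KO microglia, against 195 to 205 CPM (median 198) in APOE44 and 191 to 206 CPM (median 201) in APOE33 microglia, also without overlap, with -0.14 ± 0.04 (SE, adjusted p = 0.0225) against APOE33 and -0.14 ± 0.039 (SE, adjusted p = 0.0158) against APOE44. The Tfe3 call against APOE33 was lost without any of KO replicates 1, 2 and 3 or APOE33 replicate 3 (highest adjusted p = 0.0719). With no filter on low counts it was lost against APOE33 (adjusted p = 0.0936) and APOE44 (adjusted p = 0.0646). Among the 9 members with TCACGTG in the promoter window, 7 rose against APOE33 and none fell (median log2 fold change 0.29). Among the 22 with a window and no such letters, 11 rose and 4 fell (median 0.21). Over all genes, 10.9% were called higher and 11.9% lower. In KO against APOE33 astrocytes, 1 of the 9 rose and none fell (median -0.044), and 5 of the 22 rose and 1 fell (median 0.11). There 8.37% of all genes were called higher and 8.83% lower, and the 1 of 9 lay near that share. In APOE33 against WT microglia, where genotype and batch cannot be told apart, 5 of the 9 were higher and 3 lower. Of the 22, 13 were higher and none lower, beside 22.2% and 22.6% of all genes. The difference between these sets of genes was not tested.

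**Figure D3:**
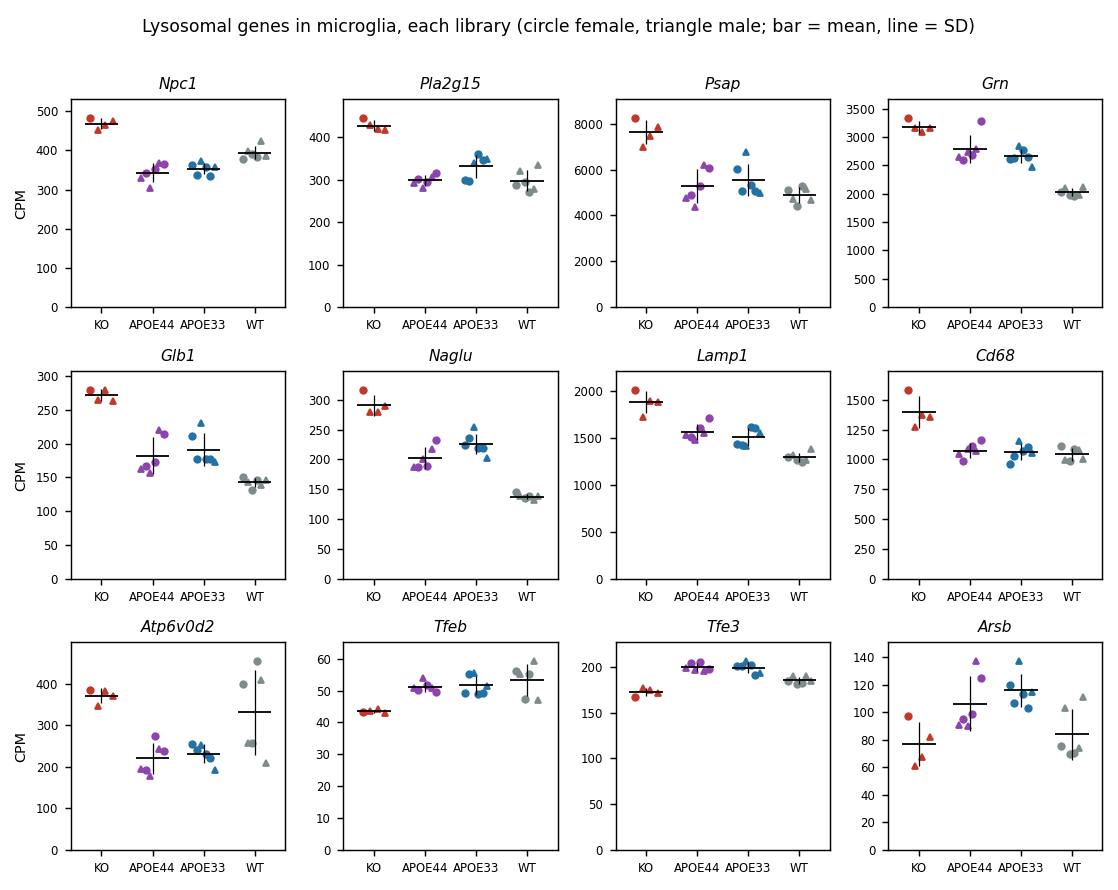
CPM of 12 lysosomal genes in every microglial library, by genotype (KO n = 4, the others n = 6; circles female, triangles male; bar, mean; vertical line, SD; each axis starts at 0). KO values of Npc1, Pla2g15, Glb1, Naglu, Lamp1, Cd68 and Psap lie above all APOE44 and APOE33 values, and those of Tfeb and Tfe3 below them.

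The libraries of a genotype did not scatter evenly. Psap stood at 6019 and 6769 CPM in APOE33 replicates 1 and 3, against 4973 to 5344 CPM in the other 4, and at 6199 and 6066 CPM in APOE44 replicates 5 and 6, against 4354 to 5301 CPM in the other 4. The same libraries were the 2 highest of their group for Glb1 and Arsb. Man2b1 stood at 1939 and 1999 CPM in the same APOE33 libraries, against 1294 to 1428 CPM in the rest. Lipa was low there, at 942 and 981 CPM, and at 1038 CPM in replicate 2, against 1377 to 1451 CPM in the other 3. Without these 4 libraries, an alternative chosen after seeing these values, 21 members rose and 1 fell against APOE33: Man2b1 and Arsa were added, Gla and Atp6v1a were lost, and Scarb2, Arsb and Tfe3 no longer passed as lower. The Psap change against APOE33 was then 0.73 and that of Glb1 0.75 on the log2 scale. The largest coefficient of variation of a member was 21% in KO (Arsb), 20.7% in APOE44 (Man2b1) and 19.9% in APOE33 microglia (Lipa).

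Of the 25 calls of KO against APOE33 in microglia, 16 held whichever of the 16 libraries was left out, and the count then ran from 17 (without KO replicate 1) to 25, with 15 to 22 higher and 1 to 4 lower. Against APOE44, 23 members rose and 3 fell, beside 13.6% and 13.4% of genes (26.9% in all). Both comparisons use the same KO libraries.

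In astrocytes fewer members passed. Against APOE33, 6 of 34 rose in KO astrocytes, 1 fell and 27 did not pass, beside 8.37% of 20481 genes called higher and 8.83% called lower, and the median log2 fold change was 0.088, beside 0.0026 over all genes. The share of members called, 7 of 34, lay near the 17.2% of all genes. The members took 0.973% ± 0.0085 of the counts in KO, 0.994% ± 0.028 in APOE44 and 0.984% ± 0.024 in APOE33 astrocytes (SD, n = 4, 6 and 6). For 6 members all KO values lay above all APOE33 values (background 7.60%), and for 1 all lay below (background 6.13%). The count was 11 with DESeq2, 4 without KO replicate 1, 2 or 3, and 3 without KO replicate 4 or APOE33 replicate 3.

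Lipa and Gusb were the 2 calls that held whichever library was left out. Lipa had 63.1, 61.3, 56.3 and 58.1 CPM in KO astrocytes, against 40.7 to 46.2 CPM (median 43.4) in APOE44 and 42.2 to 54.5 CPM (median 48.8) in APOE33 astrocytes. KO values lay above all APOE values. The change was 0.32 ± 0.048 (SE, adjusted p = 0.000675) against APOE33 and 0.47 ± 0.046 (SE, adjusted p = 1.09e-05) against APOE44. Gusb had 57.3, 57, 49.4 and 55.5 CPM in KO astrocytes, against 35.6 to 46.6 CPM (median 41.5) in APOE44 and 38 to 49.4 CPM (median 44.5) in APOE33 astrocytes, and the lowest KO value lay just above the highest APOE33 value. The change was 0.33 ± 0.074 (SE, adjusted p = 0.00719) against APOE33. Both genes are far higher in microglia, and the marker-equivalent of microglial RNA would give a median of 31.6% of the Lipa level in KO and 18.1% in APOE33 astrocytes, and 21.4% of the Gusb level in KO and 15.3% in APOE33. In CPM it would give 18.4 of the mean 59.7 of Lipa in KO and 10.2 of 48.9 in APOE33 astrocytes. For Gusb it would give 11.6 of 54.8 CPM in KO and 7.74 of 44 CPM in APOE33. The equivalent thus differs between the groups by an amount that is not small beside the Lipa difference. With the microglial marker level as a covariate both still passed, but the part of microglial RNA in each change was not measured. Of the 16 microglial markers 1 rose in KO astrocytes, and of 5 tested border macrophage and monocyte markers 1 rose. Of 10 astrocyte markers 1 rose and 2 fell, with sums of 11921 to 15515 CPM in KO and 12821 to 17973 CPM in APOE33 astrocytes, and the part of these markers in the result was not tested. Ppt1 had 281, 256, 270 and 266 CPM in KO astrocytes, against 199 to 223 CPM (median 211) in APOE44 and 203 to 247 CPM (median 224) in APOE33 astrocytes, without overlap. Its call (0.24 ± 0.064 SE, adjusted p = 0.0183) was lost without KO replicate 1 (adjusted p = 0.0958) or APOE33 replicate 3.

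The other calls were each lost without some library. Pla2g15 had 26.8, 29.6, 25.9 and 28.1 CPM in KO astrocytes, against 19.8 to 25.1 CPM (median 22.3) in APOE44 and 20.2 to 25.6 CPM (median 21.7) in APOE33 astrocytes, with a change of 0.27 ± 0.082 (SE, adjusted p = 0.0317); the call was lost in 5 of 16 fits with a library left out and with the marker covariate (adjusted p = 0.12). Galc had 104, 117, 120 and 128 CPM in KO astrocytes, against 81.6 to 95.2 CPM (median 89.9) in APOE44 and 85.2 to 116 CPM (median 90.9) in APOE33 astrocytes; 2 APOE33 libraries lay within the KO range, and the call (0.28 ± 0.084 SE, adjusted p = 0.032) was lost in 6 of 16 such fits and with the covariate (adjusted p = 0.0735). Mcoln1 had 49.3, 42.8, 46.6 and 50.1 CPM in KO astrocytes, against 35.5 to 41.7 CPM (median 37.8) in APOE44 and 36.5 to 45.5 CPM (median 40.6) in APOE33 astrocytes, overlapping in 1 KO library, and its call (0.21 ± 0.067 SE, adjusted p = 0.0412) was lost in 10 of 16 and with no filter on low counts (adjusted p = 0.0627). Tfe3 had 55.4, 55.2, 52.6 and 55.8 CPM in KO astrocytes, against 61.5 to 72.2 CPM (median 66.1) in APOE44 and 56.6 to 71.4 CPM (median 60.2) in APOE33 astrocytes, with no KO value reaching APOE33; the call (-0.26 ± 0.078 SE, adjusted p = 0.0333) was lost in 5 of 16 and with the covariate (adjusted p = 0.106). Galc, Mcoln1 and Pla2g15 rose in KO cells of both types against APOE33, Tfe3 fell in both, and no member was called in opposite directions. The share of all genes called in both was not counted, and so few astrocyte calls could show little of opposite directions. With the replicate number as a block, the astrocyte calls of Galc (adjusted p = 0.0667), Mcoln1 (0.068) and Tfe3 (0.0681) were lost. So was the microglial call of Tfe3 (0.0788), while the astrocyte call of Pla2g15 was kept.

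Against APOE44, whose comparison shares the KO libraries, 11 members rose and 4 fell in astrocytes, beside 11.0% and 11.8% of genes (22.7% in all). The microglial RNA equivalent had a median of 1.48% in KO and 0.809% in APOE44 astrocytes. It would give 26.2 of the mean 84.4 CPM of Man2b1 in KO and 11.1 of 57.6 CPM in APOE44. For Hexa it would give 20.3 of 133 CPM in KO and 10.1 of 114 CPM in APOE44. With the microglial marker level as a covariate the calls of Pla2g15 (adjusted p = 0.11), Psap (adjusted p = 0.0728), Arsa (adjusted p = 0.144) and Gla (adjusted p = 0.0515) were lost, and Grn, lower, and Npc2 and Neu1, higher, were added. The members called here and not against APOE33 were Npc1, Cd63, Hexa, Man2b1, Asah1, Psap, Arsa and Gla. Npc1 had 124, 112, 108 and 113 CPM in KO astrocytes, against 129 to 146 CPM (median 136) in APOE44 and 111 to 136 CPM (median 123) in APOE33 astrocytes; KO lay below all APOE44 values and the change was -0.29 ± 0.057 (SE, adjusted p = 0.00205). Psap had 4170, 4009, 3866 and 4095 CPM in KO astrocytes, against 4390 to 4965 CPM (median 4555) in APOE44 and 4092 to 4664 CPM (median 4323) in APOE33 astrocytes, with -0.21 ± 0.066 (SE, adjusted p = 0.0289) against APOE44. Arsa had 44.7, 58.5, 58.2 and 55 CPM in KO astrocytes, against 53 to 69.4 CPM (median 64.7) in APOE44 and 46.9 to 64.9 CPM (median 58.8) in APOE33 astrocytes, with -0.29 ± 0.094 (SE, adjusted p = 0.0378). None of these 3 genes passed against APOE33 in astrocytes. With a library left out, the Psap call was lost in 5 of 16 fits and the Arsa call in 7 of 16 (adjusted p = 0.168 without KO replicate 1), while the Npc1 call held in all 16. The Arsa call was also lost with no filter on low counts (adjusted p = 0.0662) and with no sex covariate (adjusted p = 0.137). Cd63 had 502, 500, 551 and 527 CPM in KO astrocytes, against 402 to 465 CPM (median 421) in APOE44 and 425 to 480 CPM (median 457) in APOE33 astrocytes, all KO values being above the APOE values (0.26 ± 0.059 SE, adjusted p = 0.00495). Man2b1 had 84.3, 84.9, 83.9 and 84.5 CPM in KO astrocytes, against 45.5 to 79 CPM (median 56.9) in APOE44 and 52.3 to 88.8 CPM (median 65.5) in APOE33 astrocytes; the KO libraries lay close together inside the APOE33 range and above APOE44 (0.56 ± 0.14 SE, adjusted p = 0.00876). Hexa had 132, 136, 129 and 134 CPM in KO astrocytes, against 104 to 125 CPM (median 113) in APOE44 and 109 to 130 CPM (median 119) in APOE33 astrocytes, with 0.21 ± 0.051 (SE, adjusted p = 0.00679). Asah1 rose by 0.24 ± 0.066 (SE, adjusted p = 0.0161), with 146, 162, 171 and 147 CPM in KO astrocytes, against 120 to 142 CPM (median 131) in APOE44 and 131 to 151 CPM (median 141) in APOE33 astrocytes. Gla rose by 0.24 ± 0.079 (SE, adjusted p = 0.04), with 17, 14, 13.8 and 14.1 CPM in KO astrocytes, against 11.2 to 13.3 CPM (median 12.2) in APOE44 and 11.2 to 13.8 CPM (median 12.1) in APOE33 astrocytes. KO replicate 1 stood apart, and without it the log2 fold change was 0.114 (adjusted p = 0.333). The Gla call was lost in 10 of 16 fits with a library left out and with no filter on low counts (adjusted p = 0.0735), and that of Asah1 without KO replicate 3 (adjusted p = 0.0623).

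**Figure D4:**
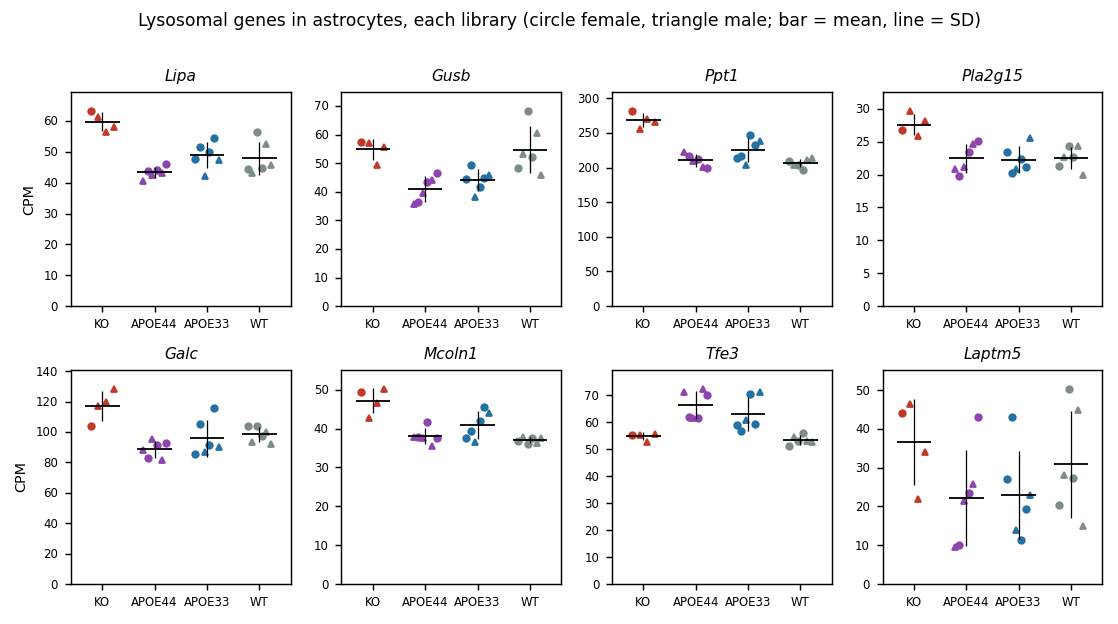
CPM of 8 lysosomal genes in every astrocyte library, by genotype (KO n = 4, the others n = 6; circles female, triangles male; bar, mean; vertical line, SD; each axis starts at 0). KO values of Lipa and Ppt1 lie above all APOE44 and APOE33 values; Laptm5, a gene of microglia, ranges from 21.9 to 46.5 CPM in KO and 11.3 to 43.1 CPM in APOE33.

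Whether the KO effect differs between the cell types was tested as an interaction, the microglial effect minus the astrocyte effect, each against APOE33. It was positive for 8 members and negative for 1, beside 6.18% and 6.55% of 21647 genes (12.7% in all). Among those that passed, the largest were Psap (0.67 ± 0.15 SE, adjusted p = 0.00294), Npc1 (0.63 ± 0.093 SE, adjusted p = 4.26e-05) and Glb1 (0.61 ± 0.15 SE, adjusted p = 0.00554), followed by Grn (0.48 ± 0.14 SE, adjusted p = 0.0228) and Lamp1 (0.43 ± 0.085 SE, adjusted p = 0.000916). Atp6v1a (0.39 ± 0.10 SE, adjusted p = 0.0136), Gaa (0.33 ± 0.11 SE, adjusted p = 0.04) and Lamp2 (0.26 ± 0.077 SE, adjusted p = 0.0227) also differed. Gusb had the opposite sign (-0.40 ± 0.13 SE, adjusted p = 0.0345), being higher in KO astrocytes and not in KO microglia. Npc1, Lamp1, Psap and Glb1 passed whichever library was left out; the other 5 did not, and the count was 5 without astrocyte KO replicate 1. The interaction did not pass for Atp6v0d2, Cd68, Naglu or Pla2g15, 4 of the members with large changes in KO microglia, nor for Tfeb. Atp6v0d2 stood at only 0.242 to 0.52 CPM in KO astrocytes. The microglial RNA equivalent would give 19.8 of the mean 20 CPM of Cd68 there. For Atp6v0d2 and Cd68 the test therefore cannot show whether astrocytes share the KO effect.

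APOE44 was set against APOE33 in the same way, to ask whether the human isoform alters the set. None of the 34 members passed by edgeR or by DESeq2, in either cell type or in the difference between them, beside 0.840% of genes called in microglia (0.379% higher, 0.461% lower), 0.703% in astrocytes (0.420% and 0.283%) and 0.296% for the difference (0.152% and 0.143%). At an unadjusted p under 0.05 there were 3 members in microglia, 3 in astrocytes and 5 for the difference. For no member did all APOE44 values lie above all APOE33 values (background 0.490% of genes in microglia, 0.757% in astrocytes) or below them (0.636% and 0.752%). The median log2 fold change was -0.029 in microglia, with point values from -0.19 to 0.076, and -0.045 in astrocytes, with point values from -0.18 to 0.14.

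The 95% intervals give the sizes of difference that these libraries leave possible. In microglia, Psap had a 95% interval of -0.31 to 0.16 on the log2 scale, Npc1 -0.17 to 0.087, Lamp1 -0.069 to 0.20, Tfeb -0.11 to 0.064 and Atp6v0d2 -0.28 to 0.16. Over all members the intervals reached from -0.51 to 0.30. The smallest p-values in microglia were those of Tpp1 (-0.19 ± 0.073 SE, adjusted p = 0.317), Pla2g15 (-0.15 ± 0.063 SE, adjusted p = 0.347) and Naglu (-0.16 ± 0.073 SE, adjusted p = 0.41). In astrocytes they were those of Lipa (-0.15 ± 0.041 SE, adjusted p = 0.168), Npc1 (0.14 ± 0.05 SE, adjusted p = 0.303) and Lamp2 (-0.11 ± 0.05 SE, adjusted p = 0.474). Lipa stood at 40.7 to 46.2 CPM (median 43.4) in APOE44 and 42.2 to 54.5 CPM (median 48.8) in APOE33 astrocytes, with overlap. The widest interval in astrocytes was that of Laptm5, at -0.80 to 0.84, a gene near the level that the microglial markers would give.

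**Figure D5:**
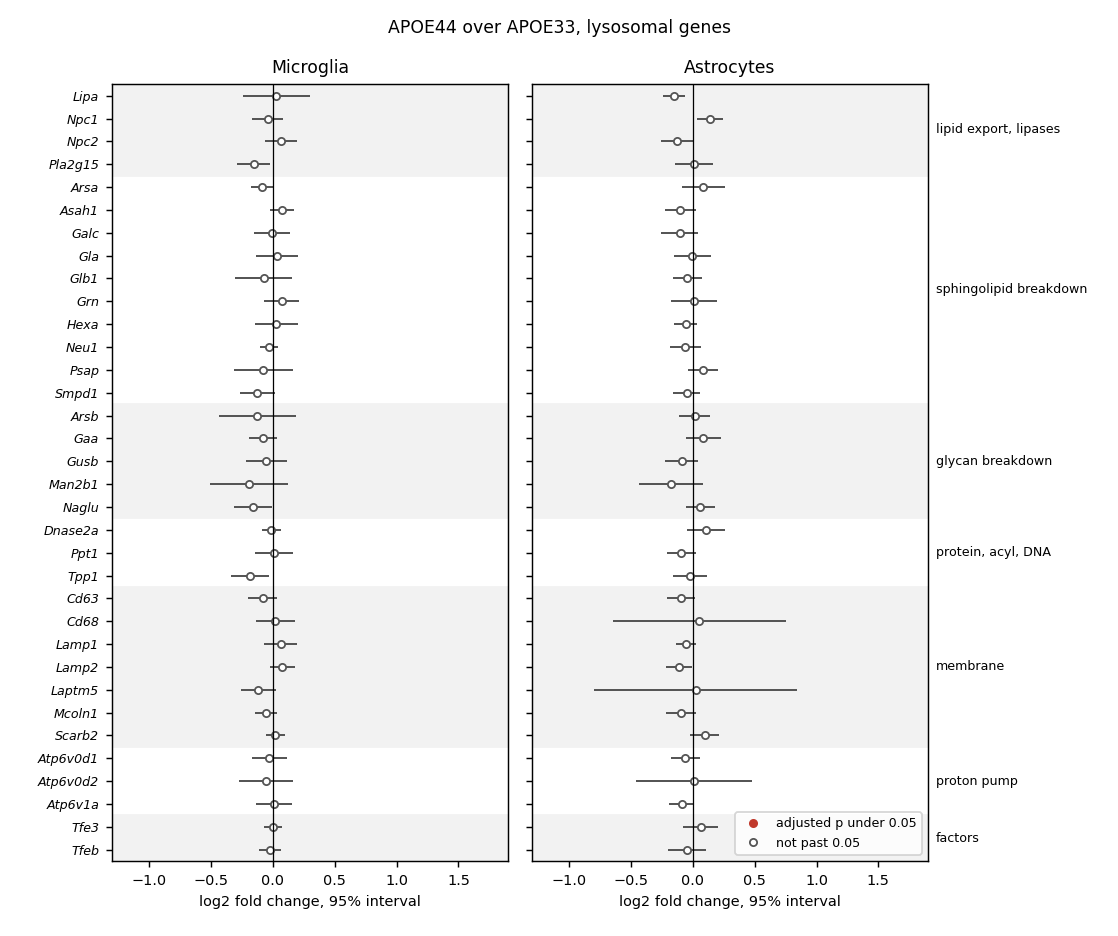
Log2 fold change of APOE44 over APOE33 (6 libraries each) with its 95% interval for each of the 34 genes in microglia (left) and astrocytes (right), on the axis used for KO over APOE33. No point passed an adjusted p of 0.05; the intervals of Laptm5 and Cd68 in astrocytes are the widest.

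In comparisons with WT, genotype and batch cannot be told apart. In KO, APOE44 and APOE33, 42.4%, 45.4% and 44.8% of genes were called in microglia, and 38.3%, 41.7% and 39.0% in astrocytes. In microglia, 24 members were higher and 1 lower in KO (background 20.9% and 21.5%), 16 and 5 in APOE44 (22.3% and 23.1%), and 19 and 5 in APOE33 (22.2% and 22.6%). In astrocytes, 20 were higher and 0 lower in KO (19.4% and 18.9%), 15 and 4 in APOE44 (20.6% and 21.1%), and 17 and 3 in APOE33 (20.1% and 18.9%). The zero in KO astrocytes is from edgeR; DESeq2 called 1 lower, Atp6v1a, and 22 members had an unadjusted p under 0.05 in either direction. The 3 comparisons of a cell type share their WT libraries.

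In KO microglia the smallest adjusted p-values against WT were those of Neu1 (0.74 ± 0.038 SE, adjusted p = 8.12e-12), Naglu (1.16 ± 0.072 SE, adjusted p = 1.73e-10), Gaa (0.71 ± 0.058 SE, adjusted p = 7.52e-09), Grn (0.72 ± 0.068 SE, adjusted p = 4.5e-08) and Lamp1 (0.62 ± 0.067 SE, adjusted p = 3.18e-07). Tfeb was the member that fell (-0.23 ± 0.058 SE, adjusted p = 0.00253). Neu1, Naglu and Gaa were also higher in APOE33 than in WT microglia, by 0.51 ± 0.034 (SE, adjusted p = 4.47e-10), 0.71 ± 0.065 (SE, adjusted p = 2.8e-08) and 0.44 ± 0.052 (SE, adjusted p = 8.65e-07). The 3 pump genes of the set were lower in APOE33. Atp6v1a (-0.34 ± 0.064 SE, adjusted p = 0.000147), Atp6v0d1 (-0.30 ± 0.059 SE, adjusted p = 0.000335) and Atp6v0d2 (-0.54 ± 0.15 SE, adjusted p = 0.00821) were lower in APOE33 than in WT microglia, as were Gla and Npc1. The Npc1 call (adjusted p = 0.0227) was lost in 3 of 22 fits with a library left out. These 5 were also the lower members in APOE44, where the Gla call (adjusted p = 0.0244) was lost in 5 of 22. Of 17 further V-ATPase subunits, 2 were higher and 7 lower in APOE33 and 2 higher and 8 lower in APOE44. Atp6v0a2 was higher in APOE33 (0.19 ± 0.036 SE, adjusted p = 0.00017) and in APOE44 (0.19 ± 0.036 SE, adjusted p = 0.000177). Npc1 stood at 379 to 425 CPM (median 389) in WT microglia, between the KO and the APOE ranges. In astrocytes, Lamp1 was higher than WT in KO (0.32 ± 0.04 SE, adjusted p = 3.17e-06), APOE44 (0.28 ± 0.036 SE, adjusted p = 2.4e-06) and APOE33 (0.33 ± 0.036 SE, adjusted p = 3.77e-07). Gusb was lower than WT in APOE44 (-0.38 ± 0.08 SE, adjusted p = 0.000703) and APOE33 astrocytes (-0.29 ± 0.081 SE, adjusted p = 0.00748). The microglial RNA equivalent had a median of 1.52% in WT, 0.809% in APOE44 and 0.758% in APOE33 astrocytes. It would give 11.9 of the mean 54.7 CPM of Gusb in WT, 7.09 of 40.9 CPM in APOE44 and 7.74 of 44 CPM in APOE33. With the microglial marker level as a covariate both calls still passed.

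Lysosomal genes outside the set were counted in 5 further lists, chosen with earlier results known; beside each name is its log2 fold change against APOE33 with the SE. Over all genes 10.9% were higher and 11.9% lower in KO microglia. Of 30 other hydrolases, 14 rose and 2 fell in KO microglia (median 0.27): Smpdl3a, a phosphodiesterase related to acid sphingomyelinase (1.07 ± 0.11), Hgsnat, the acetyltransferase of heparan sulfate breakdown (0.81 ± 0.092), and Idua, the iduronidase (0.49 ± 0.057), had the smallest adjusted p. Of 30 tested membrane and transport proteins, 9 rose and 2 fell (median 0.084), led by the channel Mcoln2 (0.80 ± 0.093), the sialic acid exporter Slc17a5 (0.31 ± 0.048) and the chloride-proton exchanger Clcn7 (0.33 ± 0.059). Of 17 further V-ATPase subunits, 3 rose and 1 fell: Atp6v1e1 (0.27 ± 0.062), Atp6v1g1 (0.27 ± 0.07) and the accessory Atp6ap1 (0.21 ± 0.055) were higher, and the share called, 4 of 17, lay near that of all genes. Of 17 genes of Mit factors and nutrient sensing, 5 rose and 1 fell, among them Flcn (0.26 ± 0.053) and Rragc (0.35 ± 0.078), which act together on the Mit factors, and Lamtor1 of the Ragulator (0.17 ± 0.042); Mitf itself did not pass (-0.12 ± 0.0598). Of 21 sorting and fusion genes, 5 rose and none fell, with Rab7 (0.29 ± 0.052), Vps41 of the HOPS tether (0.22 ± 0.044) and Gnptab, which makes the mannose 6-phosphate tag (0.22 ± 0.056). The share called in either direction, 5 of 21, lay near the 22.7% of all genes.

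In KO astrocytes the same lists gave 4 higher and 4 lower of 30 hydrolases, 3 and 2 of 30 membrane and transport proteins, 0 and 1 of 19 V-ATPase subunits, 4 and 0 of 17 Mit and nutrient-sensing genes, and 0 and 0 of 21 sorting genes; DESeq2 called 2 of these 21, and 6 had an unadjusted p under 0.05. Over all genes 8.37% were higher and 8.83% lower, and the counts of membrane and transport proteins and of V-ATPase subunits lay near or under these shares. Among the nutrient-sensing genes, Rragd (0.41 ± 0.067), Flcn (0.33 ± 0.063) and Fnip1, the partner of folliculin (0.33 ± 0.065), rose, and so did Mitf (0.33 ± 0.105). The hydrolases included Manba, the beta-mannosidase (0.42 ± 0.065), Hgsnat (0.26 ± 0.053) and, lower, Naaa, an acid amidase (-0.37 ± 0.059). Slc15a4 (-0.18 ± 0.043), Slc29a3 (-0.28 ± 0.078) and Atp6v0e (-0.22 ± 0.051) were lower and the peptide transporter Abcb9 (0.64 ± 0.17) higher. The KO effect on Mitf was lower in microglia than in astrocytes (interaction -0.45 ± 0.12, adjusted p = 0.0119), and that on Smpdl3a (1.26 ± 0.13) and Rab7 (0.37 ± 0.072) was higher. Between APOE44 and APOE33, 1 gene of the 5 lists was called in each cell type: Atp6v1e1, lower in APOE44 microglia (-0.35 ± 0.053), and Sumf1, the activator of sulfatases, lower in APOE44 astrocytes (-0.21 ± 0.044).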

How the data were processed

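RNA was sequenced from 44 libraries of purified, cultured mouse microglia and astrocytes (Qiagen RNeasy extraction and a NEBNext Ultra kit, per the labels' protocols). The authors deposited raw counts per gene, which are whole numbers. Among small nonzero counts, 62.4% to 78.7% were even, depending on the library. The reason was not tested, so the totals may not equal the number of sequenced fragments. The submitters' processing notes name STAR 2.5.3a, featureCounts, edgeR 3.26.8 and DESeq2; they name the human build hg38 although the gene IDs are mouse, and no source used here gives the annotation or strand setting. Of 54146 IDs, 54079 (99.9%) matched GENCODE M21, which gave symbols and exon lengths for TPM. Groups follow the labels; 1 astrocyte library titled APOE33 carries a WT genotype tag and was kept as APOE33.

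Counts were filtered with filterByExpr, scaled by TMM and tested with edgeR 4.0.16 (quasi-likelihood test, robust, sex as covariate, Benjamini-Hochberg adjustment over all genes tested, calls at adjusted p under 0.05); log2 fold changes carry SEs. Within a cell type, KO, APOE44 and APOE33 shared a fit. The test was checked on simulated data. The members, lists and alternatives were chosen with earlier results of these data known. Values were given for members called within a cell type in batch 1 and for the 4 largest and 4 smallest differences between the cell types; against WT, up to 5 members per direction, and of other lists up to 3 called genes, with the smallest adjusted p. Alternatives were DESeq2 1.42.0, RLE scaling, no filter on low counts, no sex covariate, the replicate number as a block, the microglial marker level as a covariate in astrocytes, all libraries in 1 fit, each library left out, and 4 APOE libraries left out (chosen after seeing the data). Libraries held 83239599 to 143150569 counts, so that precision rests on 4 or 6 libraries a group.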

Additional observations from a re-analysis of the deposited data

Results flagged for a closer look

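The values of 31 members were checked in each batch 1 group of 4 to 6 libraries, 186 checks in all. In 11 of them a library stood apart from the rest of its group. Chance flags about 1 in 20 checks, and 11 of 186 lay near that rate. The checks are not independent, since the same libraries recur. In KO astrocytes, replicate 1 stood at 17 CPM of Gla (the others 13.8 to 14.1), 270 CPM of Tpp1 (259 to 261) and 210 CPM of Gaa (286 to 296), and replicate 2 at 238 CPM of Grn (195 to 197). In APOE44 microglia, replicate 3 stood at 684 CPM of Lamp2 (732 to 759), 556 CPM of Asah1 (591 to 604) and 66.6 CPM of Mcoln1 (60.1 to 61.9). There, replicate 6 had 3285 CPM of Grn (2605 to 2795) and replicate 5 had 1243 CPM of Cd63 (1133 to 1164). In APOE33 microglia, replicate 3 had 492 CPM of Asah1 (559 to 587) and 542 CPM of Tpp1 (446 to 462).

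The KO effect against APOE33 differed between the cell types, by the interaction term, for 9 members. The microglial effect minus the astrocyte effect on the log2 scale was 0.667 for Psap, 0.628 for Npc1, 0.608 for Glb1, 0.48 for Grn, 0.435 for Lamp1, 0.387 for Atp6v1a, 0.332 for Gaa, 0.264 for Lamp2 and -0.403 for Gusb. Without astrocyte KO replicate 1, the library low for Gaa, the interaction of Gaa no longer passed (adjusted p = 0.249).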

How the results depend on the processing

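No result reversed its direction in the alternative fits; in plain CPM, not a fit, Arsb lay lower in WT microglia than in WT astrocytes, while the TMM-scaled test called it higher (log2 0.315, adjusted p = 0.0105). Of KO against APOE33 in astrocytes, 7 members passed, and DESeq2 gave 11, the replicate number as a block 3, and leaving out single libraries 3 to 8; the count was 3 without KO replicate 4 or APOE33 replicate 3 and 4 without KO replicate 1, 2 or 3. The interaction count of 9 ran from 5, without astrocyte KO replicate 1, to 10. The other total counts stayed within 1.5 times. With single libraries left out they ran from 17 to 25 (KO against APOE33) and 19 to 27 (KO against APOE44) in microglia and from 11 to 16 (KO against APOE44) in astrocytes, and remained 0 between APOE44 and APOE33. With the replicate block, 21 members passed for KO against APOE33 in microglia (20 higher, 1 lower) and 6 in the interaction. Within a cell type, none of 12 pairs of groups had every correlation of deviations above 0.1 (-0.674 to 0.455 over 10642 genes). Between the cell types, none of 4 pairs of groups did (-0.158 to 0.202). Astrocyte and microglial libraries of the same genotype and number carry the same sex. The labels do not state whether they share an animal, and the main fits did not pair them. The 4 lower calls in KO against APOE33 microglia came to 1, Tfeb, with the replicate block, without a filter on low counts (21 higher, 1 lower) and with the 4 APOE libraries left out (21 higher, 1 lower), an alternative chosen after seeing the data. Over all members, comparisons and single libraries left out, 235 calls were lost and 78 gained; the cause was not tested. Each KO group has 4 libraries, 1 of them female, and sex and replicate 1 cannot be told apart within it.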
